A study of Mus musculus with 9 samples.

Results

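The genes described here encode collagen chains. They were taken as the rows of the deposited expression table whose symbol reads Col, a number, the letter a and a number, with nothing after it, which gave 43 of 24102 rows. The rule uses names and no measured value. The chains were compared in 3 groups: 6 cartilage chains (types II, IX and XI), 8 bone and tendon chains (types I, III, V, XII and XIV) and 6 basement membrane chains (type IV). The other 23 chains were kept as a separate set. Of the 43 rows, 32 held at least 1 FPKM (a level per transcript length and sequencing depth) in 3 or more of the 6 columns and entered the test, namely 6 cartilage, 7 bone and tendon, 3 basement membrane and 16 other chains.

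The study sorted GFP-positive cells from dissociated limbs of E12.5 mouse embryos and sequenced their RNA. In both genotypes Cre sat at 1 allele of Shox2, a homeobox gene of the limb, and the mTmG reporter at Rosa turns from red to green fluorescence in cells that have made Cre. Controls were Shox2(Cre/+);Rosa(mTmG) and mutants Shox2(Cre/-);Rosa(mTmG). The controls thus carried the Cre allele too, and the comparison is of cells with a + allele beside it against cells with a minus allele. The table holds 1 control and 1 mutant column from each of 3 litters (n = 3 per genotype), although the labels list 3 control and 4 mutant samples. How many embryos went into a column is not given.

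Collagens are trimers of chains that wind into a helix with glycine at regular places. Cartilage fibrils are built from type II with types IX and XI, and fibrils of bone, tendon and loose mesenchyme from type I with types III and V, while types XII and XIV sit on fibril surfaces. Type IV forms the sheet of basement membranes. Condensing limb mesenchyme switches on the cartilage chains under Sox9, Sox5 and Sox6.

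Shox2 itself was at 217, 222 and 209.7 FPKM in the controls and 16.7, 18.3 and 96.9 FPKM in the mutants of litters 1, 2 and 3. All values that follow are in this order, controls before mutants. Every mutant column was below every control column, and the litter 3 mutant kept more transcript than the other mutants. The difference between mutants and controls was -2.75 (SE 0.64) on the log2(FPKM + 1) scale used for all differences, with an adjusted p of 0.803 in limma, or 0.0998 with litter as a block. Without the litter 3 mutant it was -3.56 (limma adjusted p = 0.0120). The columns summed to 347708 to 439109 FPKM over all rows, and the depth behind them is unknown. Xist, made from the inactive X chromosome, was at 178 FPKM in the litter 2 mutant and 34.6 FPKM in its control, and the Y-linked Eif2s3y was listed at 0 in that mutant against 23.9 FPKM in its control, so that sex composition and genotype cannot be told apart in litter 2.

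Promoter stretches are shown for the tested chains whose groups did not overlap, where a window was found, and for Col11a2, one of the 2 chains with a homeodomain core, since Shox2 is a homeodomain protein. RefSeq windows of build GRCm38.p6, from 250 bases before to 50 after a start, were found for 34 of the 43 rows and gave 37 windows. TAATTA, the homeodomain core, lay in 2 of these, those of Col10a1 and Col11a2, or 5.41%, against 5.29% of 32851 windows of the same length. TATAAA lay in 13.5% and CCAAT in 32.4% of collagen windows, against 13.6% and 37.4% of all windows. Both strands were searched, and none of the 3 motifs contains another. A match is a match of letters and no measure of binding. The stretches are the 150 bases before the start, with matches to the 3 motifs on either strand in capitals, at chr17:34038988-34039137 (plus strand), chr6:4505468-4505617 (plus strand), chr1:45311388-45311537 (plus strand), chr9:105960644-105960793 (minus strand), chr10:61979109-61979258 (minus strand) and chr3:130180695-130180844 (plus strand).
Col11a2: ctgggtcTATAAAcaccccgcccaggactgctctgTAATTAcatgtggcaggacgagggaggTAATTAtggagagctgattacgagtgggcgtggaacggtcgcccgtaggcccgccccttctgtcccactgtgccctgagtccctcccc
Col1a2: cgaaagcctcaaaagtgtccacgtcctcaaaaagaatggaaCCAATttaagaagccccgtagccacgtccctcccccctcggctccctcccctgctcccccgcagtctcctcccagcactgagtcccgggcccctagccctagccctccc
Col3a1: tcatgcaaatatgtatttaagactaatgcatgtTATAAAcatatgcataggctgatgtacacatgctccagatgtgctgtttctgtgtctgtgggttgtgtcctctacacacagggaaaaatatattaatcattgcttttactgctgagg
Col6a5: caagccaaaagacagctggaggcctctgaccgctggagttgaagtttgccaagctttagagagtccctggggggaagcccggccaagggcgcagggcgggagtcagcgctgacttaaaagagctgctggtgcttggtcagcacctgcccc
Col13a1: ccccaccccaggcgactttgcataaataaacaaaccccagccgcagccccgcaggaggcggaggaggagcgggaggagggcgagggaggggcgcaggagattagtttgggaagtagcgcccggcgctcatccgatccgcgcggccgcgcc
Col25a1: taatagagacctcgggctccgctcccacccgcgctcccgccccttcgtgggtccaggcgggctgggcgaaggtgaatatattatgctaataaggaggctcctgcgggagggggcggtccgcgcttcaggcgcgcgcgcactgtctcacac
In these stretches Col11a2 holds 2 matches to TAATTA and 1 to TATAAA, Col3a1 holds 1 to TATAAA and Col1a2 holds 1 to CCAAT. Those of Col6a5, Col13a1 and Col25a1 hold none of the 3 motifs.

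Fibril-forming chains were the most abundant collagens. In the controls, 7 of the tested chains averaged 100 FPKM or more, 18 between 10 and 100 FPKM, and 7 less than 10 FPKM. The order was led by Col3a1 at 1195 ± 213 FPKM (SD, n = 3), Col1a2 at 725 ± 8.90 FPKM, Col1a1 at 564 ± 254 FPKM and Col2a1 at 468 ± 22.5 FPKM. Col1a1 did not differ from its neighbours Col1a2 and Col2a1 beyond its own spread. Next came Col5a2 at 162 ± 35.1 FPKM, Col5a1 at 129.9 ± 14.0 FPKM and Col26a1 at 125 ± 11.8 FPKM. Col5a1 lay within 1 SD of Col5a2, and Col26a1 within 1 SD of Col5a1. The 4 leading chains made up 66.2% to 70.3% of the summed collagen level in the controls and 63.5% to 64.8% in the mutants. By mean level Col3a1 ranked 15 among the 12314 tested rows of all genes and Col1a2 ranked 28.

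**Figure D1:**
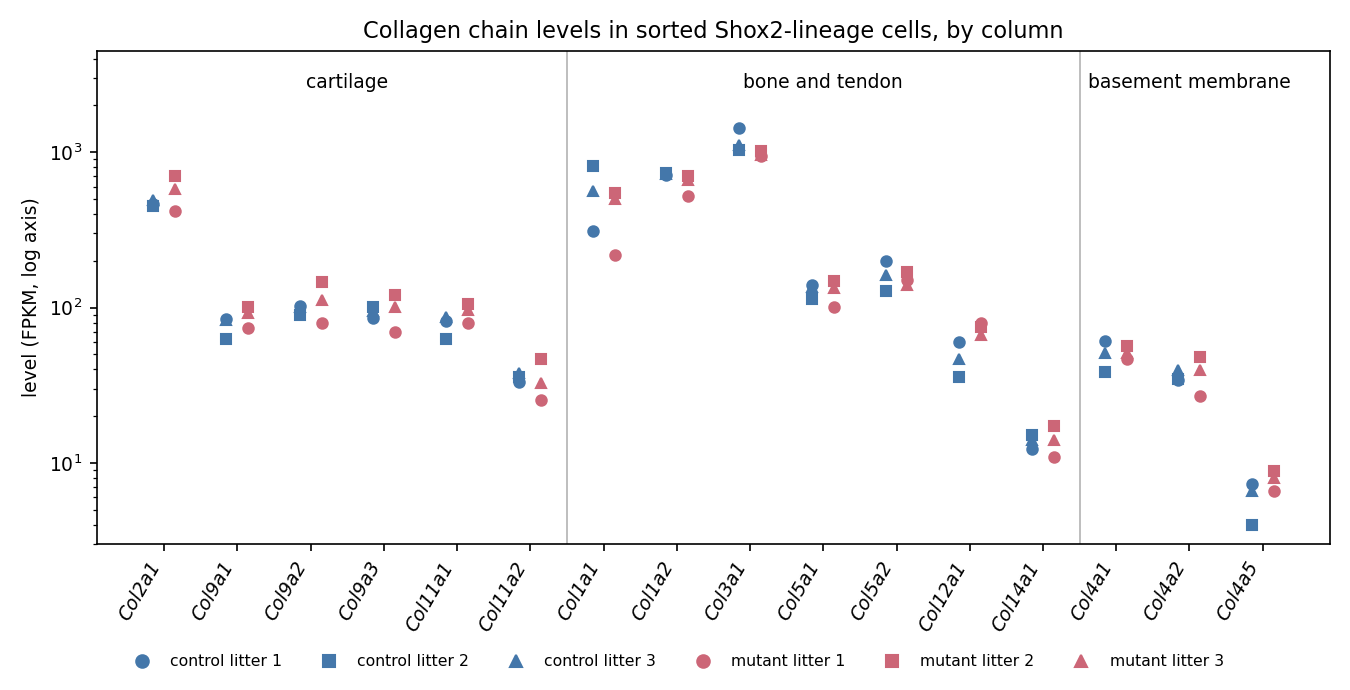
Level in FPKM (vertical log axis) of the 16 tested cartilage, bone and tendon, and basement membrane chains, with 1 point per column, blue for controls and red for mutants, and 1 marker shape per litter. Col12a1 is the chain here with all mutant points above all control points, and Col1a2 and Col3a1 have all mutant points below.

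Over all 12314 tested rows limma called 0 rows higher (0%) and 0 lower (0%) in the mutants at an adjusted p under 0.05, so 0 of 32 collagen chains passed. At an unadjusted p under 0.05, 1 chain was higher, Col12a1, and 2 were lower, Col6a5 and Col13a1, against 2.21% and 1.36% of all rows. With litter as a replicate block, 2 were higher, Col12a1 and Col15a1, and 3 were lower, Col1a1, Col6a5 and Col13a1, against 5.34% and 6.29%. The lowest adjusted p of a collagen was 0.884 in limma without the block, for Col13a1, and 0.203 with it, for Col12a1. With the block and without the litter 2 pair, which leaves 4 columns and 1 residual degree of freedom, 1 chain passed as higher, Col12a1 (limma adjusted p = 0.0490), and 4 as lower, Col6a5, Col8a1, Col13a1 and Col23a1, against 2.56% and 1.78% of all rows. With the block and without the litter 1 or litter 3 pair, the lowest limma adjusted p of a collagen was 0.713 or 0.285. Groups did not overlap for 2 tested chains that were higher, Col12a1 and Col25a1, and 4 that were lower, Col1a2, Col3a1, Col6a5 and Col13a1, against 4.22% and 5.03% of all tested rows.

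The direction of most chains differed between litters. The mutant was above its control for 3 of the 32 tested chains in litter 1, 25 in litter 2 and 13 in litter 3, or 9.38%, 78.1% and 40.6%. Over all tested rows the shares were 39.7%, 46.7% and 51.0%. The median difference of the chains was -0.36, 0.37 and -0.038 in litters 1, 2 and 3, and that of all rows was -0.070, -0.030 and 0.0032. Chains of all groups were therefore mostly lower in the litter 1 mutant. In the litter 2 mutant most chains were higher, but only 4 of 7 in bone and tendon, where Col1a1, Col1a2 and Col3a1 were lower. Averaged over litters the median of the 32 chains was 0.0025, next to -0.040 for all rows. Among the tested chains 3 were higher in 3 of 3 litters, Col12a1, Col15a1 and Col25a1, and 6 were lower, Col1a1, Col1a2, Col3a1, Col6a1, Col6a5 and Col13a1, against 15.7% and 22.3% of all tested rows.

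**Figure D2:**
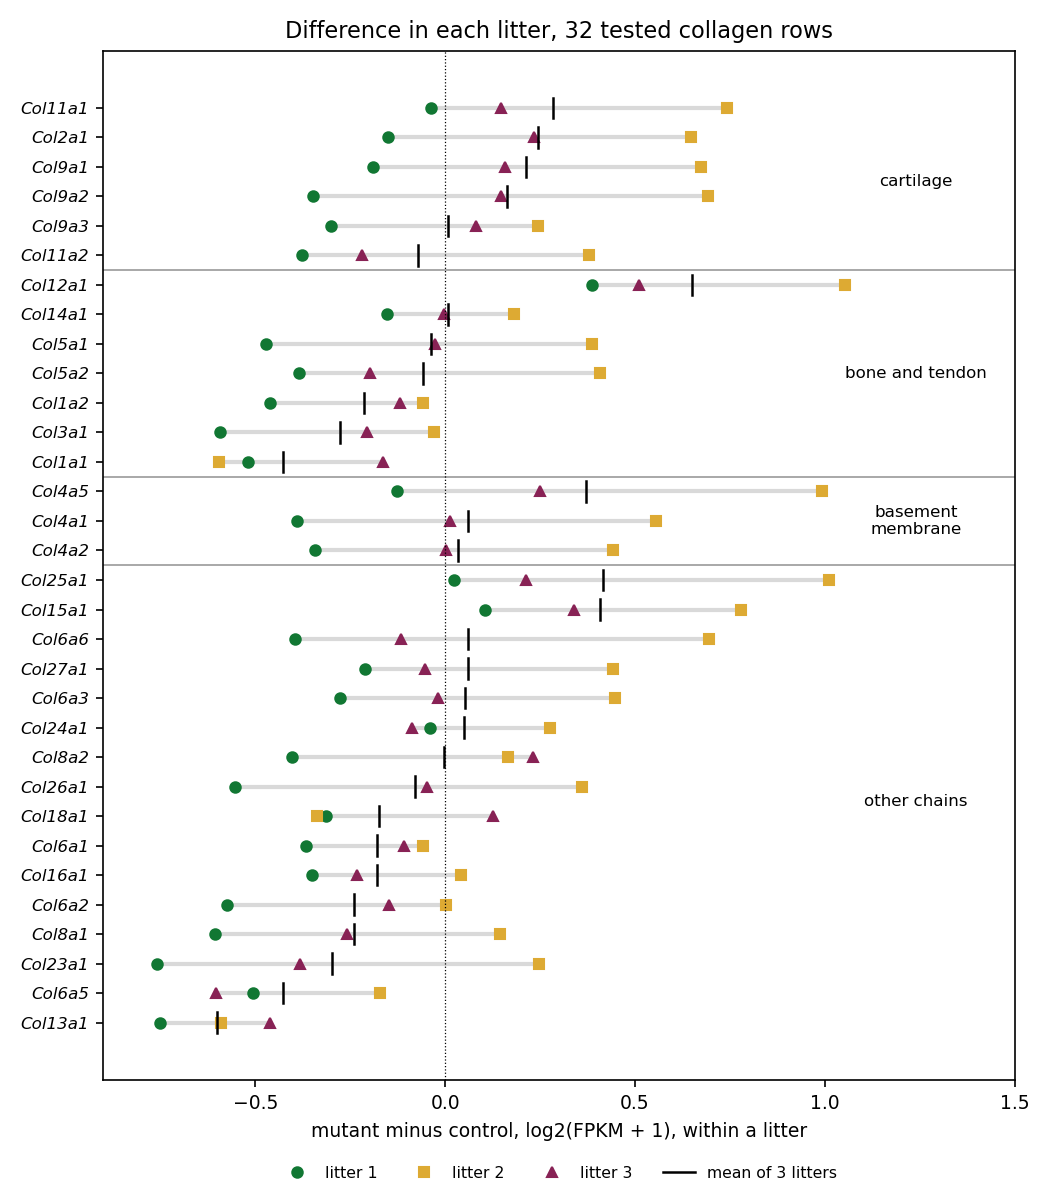
Mutant minus control within each litter on the log2(FPKM + 1) scale (horizontal axis) for the 32 tested collagen chains, by group and then by mean, with 1 marker per litter and a black bar for the mean. Litter 1 points lie left of 0 for 29 chains and litter 2 points lie right of 0 for 25.

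Cartilage chains had the lowest difference in litter 1 and the highest in litter 2 for 6 of 6 members, and their differences had a median of 0.19 with 0 of 6 past the threshold. Col2a1, the chain of type II collagen and the main fibril of cartilage, was at 464, 448 and 493 FPKM in the controls and 418, 703 and 579.9 FPKM in the mutants. The litter 1 mutant lay below all controls and the other mutants above them, with a difference of 0.24 (SE 0.23). Col11a1, a type XI chain of thin cartilage fibrils, was at 82.0, 62.7 and 87.1 FPKM and at 79.9, 106 and 96.5 FPKM. Its groups overlapped through litter 1, and its difference was 0.28 (SE 0.19). Col11a2, the partner chain with 2 homeodomain cores in its promoter stretch, was at 33.0, 35.8 and 38.0 FPKM and at 25.2, 46.9 and 32.5 FPKM, with mutants on both sides of the controls and a difference of -0.072 (SE 0.23).

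Type IX collagen decorates the surface of cartilage fibrils as a trimer of 3 different chains. Col9a1 was at 84.2, 62.9 and 83.1 FPKM and at 73.7, 101 and 92.7 FPKM. Col9a2 was at 102, 89.3 and 100.3 FPKM and at 80.0, 145 and 111 FPKM. Col9a3 was at 85.3, 101 and 95.2 FPKM and at 69.1, 119.6 and 101 FPKM. For each of them the litter 1 mutant was the lowest mutant and the litter 2 mutant the highest column of all. Their differences were 0.21 (SE 0.19), 0.16 (SE 0.23) and 0.0080 (SE 0.22). In litter 1 all 6 cartilage chains were lower in the mutant, in litter 2 all 6 were higher, and in litter 3 5 were higher, all but Col11a2.

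Bone and tendon chains had a median difference of -0.058 over 7 tested members, and the main fibril chains Col1a1, Col1a2 and Col3a1 were lower in the mutant of every litter. Col1a1, which supplies most chains of the type I trimer, was at 313, 819.9 and 561 FPKM in the controls and 218, 542 and 500.4 FPKM in the mutants. The litters differed more than the genotypes, but each mutant lay below its own control, and the difference was -0.43 (SE 0.48), with an unadjusted limma p of 0.402, or 0.0246 with litter as a block. Col1a2, its partner in type I, was at 717, 735 and 724 FPKM and at 521, 706 and 666 FPKM. Its controls were nearly level and all mutants were below them, with a difference of -0.21 (SE 0.19). Col3a1, of type III collagen in early and loose connective tissue, was at 1438, 1040 and 1106 FPKM and at 952, 1018 and 959.6 FPKM. Its mutants were also all below its controls, closest in litter 2, and the difference was -0.28 (SE 0.21).

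Col5a1 and Col5a2 belong to type V collagen, which starts and limits type I fibrils. Col5a1 was at 139.5, 114 and 136 FPKM in the controls and 100.4, 149 and 134 FPKM in the mutants, and Col5a2 at 198, 128 and 161 FPKM and at 151, 170.0 and 140.3 FPKM. Both were lower in litter 1 and higher in litter 2, and their differences were -0.037 (SE 0.19) and -0.058 (SE 0.20). Col5a3 was below the filter, with values up to 0.326 FPKM. Col14a1, a fibril-surface collagen, was at 12.2, 15.0 and 14.1 FPKM and at 10.9, 17.2 and 14.0 FPKM, with a difference of 0.0080 (SE 0.19).

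Col12a1 was the bone and tendon chain with higher values in every mutant. It encodes type XII collagen, a long fibril-surface chain of tendon, ligament and perichondrium. It was at 60.3, 35.5 and 46.7 FPKM in the controls and 79.2, 74.7 and 66.9 FPKM in the mutants, or 47.5 ± 12.4 and 73.6 ± 6.18 FPKM (SD, n = 3). The lowest mutant column was above the highest control column, and the litters differed by 0.39, 1.05 and 0.51. The difference was 0.65 (SE 0.21), with an unadjusted p of 0.0193 and an adjusted p of 1.00 in limma, or 0.00377 and 0.203 with litter as a block. Over the 16 alternatives it ran from 0.45 to 0.83, with adjusted p from 0.0490 to 1.00.

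Cartilage chains held a larger share of the collagen level in the mutant of each litter, and bone and tendon chains a smaller one. The cartilage share of the summed collagen FPKM was 19.4%, 18.5% and 20.6% in the controls and 22.8%, 26.1% and 24.3% in the mutants. The bone and tendon share was 65.5%, 66.7% and 63.1% in the controls and 62.1%, 57.3% and 59.4% in the mutants. The groups did not overlap for either, and the shares are a description with no test, as they add up to a fixed whole and rest mainly on the 4 leading chains. Basement membrane chains held 2.36%, 1.81% and 2.24% in the controls and 2.46%, 2.44% and 2.38% in the mutants. Summed collagen itself was at 4393, 4330 and 4354 FPKM in the controls and 3275, 4676 and 4175 FPKM in the mutants, with no common direction.

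**Figure D3:**
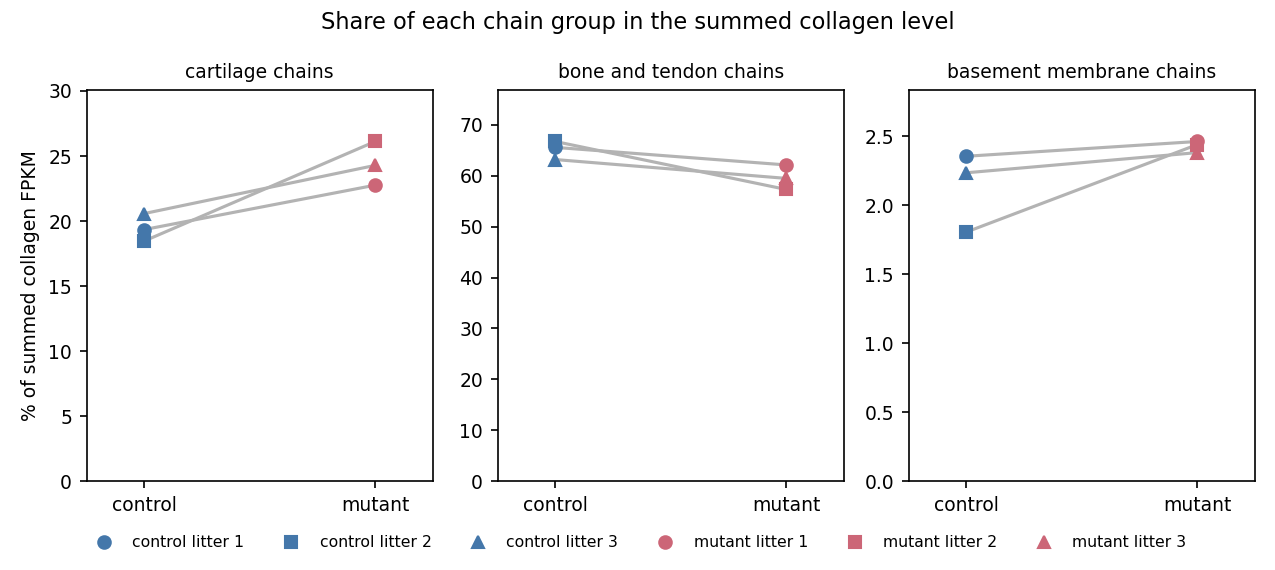
Share of summed collagen FPKM (vertical axis in %, from 0, with a scale of its own in each panel) held by cartilage, bone and tendon, and basement membrane chains in each column, with a grey line joining the columns of a litter. Cartilage shares run from 18.5% to 20.6% in controls and from 22.8% to 26.1% in mutants, and bone and tendon shares are lower in all 3 mutants.

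Ratios of chains within a column were compared for 7 pairs, in designs too small for any to pass. Col2a1 to Col1a1, the main cartilage against the main bone chain, was 1.48, 0.547 and 0.878 in the controls and 1.91, 1.30 and 1.16 in the mutants. It was higher in 3 of 3 litters with overlapping groups, by 0.67 on the log2 scale (exact two-sided permutation p = 0.3, adjusted p = 0.875), where 0.1 is the smallest p that 3 columns against 3 allow. Col11a1 to Col11a2, the type XI pair, was 2.48, 1.75 and 2.29 in the controls and 3.17, 2.25 and 2.97 in the mutants. Its litters differed by 0.35, 0.36 and 0.37, nearly the same amount in each, while its groups overlapped (exact permutation p = 0.3, adjusted p = 0.875). An exact sign-flip permutation within litters, added after seeing the data, gave p = 0.25 for this ratio and for Col2a1 to Col1a1 (adjusted p = 0.438), the smallest that 3 litters allow. Col9a1 to Col9a3 was also higher in 3 of 3 litters, by 0.11, 0.44 and 0.077 (exact permutation p = 0.5). Col1a1 to Col1a2 was 0.436, 1.12 and 0.775 in the controls and 0.419, 0.768 and 0.751 in the mutants, so the type I chains differed in balance between litters of 1 genotype. This ratio was lower in 3 of 3 litters, with differences of -0.058, -0.54 and -0.045 and overlapping groups (exact permutation p = 0.5). Col5a1 to Col5a2 and Col9a1 to Col9a2 differed by 0.021 and 0.051 (exact permutation p = 0.9 and 0.8).

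Basement membrane chains had a median difference of 0.059 over 3 tested members. Col4a1 and Col4a2 form the common type IV trimer. Col4a1 was at 61.2, 38.3 and 50.8 FPKM in the controls and 46.4, 56.7 and 51.3 FPKM in the mutants, and Col4a2 at 34.3, 34.9 and 39.6 FPKM and at 26.9, 47.7 and 39.7 FPKM. The genes lie head to head on chromosome 8, Col4a1 on the minus and Col4a2 on the plus strand. Their RefSeq starts, at positions 11312826 and 11312805 of GRCm38.p6, are 21 bases apart. The annotated transcripts overlap there, with no gap between them. Their differences were alike within a litter, at -0.39, 0.55 and 0.013 for Col4a1 and -0.34, 0.44 and 0.0032 for Col4a2. Their ratio was 1.78, 1.10 and 1.28 in the controls and 1.73, 1.19 and 1.29 in the mutants, a larger spread between litters than between genotypes (exact permutation p = 0.9). Col4a5, an X-linked chain of other type IV trimers, was at 7.32, 3.97 and 6.59 FPKM and at 6.61, 8.90 and 8.03 FPKM, a difference of 0.37 (SE 0.23). Col4a3, Col4a4 and Col4a6 were below the filter, and the highest value among them was 1.12 FPKM, for Col4a6 in the litter 2 control.

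Endothelium and surface ectoderm also lie on type IV collagen, and their markers are given beside it. The 9 endothelial markers summed to 7.10 to 19.4 FPKM in the controls and 5.96 to 6.27 FPKM in the mutants, without overlap and with 0 markers at 0 in all columns. Single endothelial markers did not all follow the sum. Cldn5, Emcn, Kdr and Esam were lower in 3 of 3 litters, against 22.3% of all tested rows. Pecam1, Cdh5, Tie1 and Flt1 were higher in the litter 1 mutant, and Tek differed by 0.014. The 9 surface ectoderm markers summed to 18.2 to 40.3 and 15.7 to 20.9 FPKM, and the litter 2 control was highest in both lists. In litter 2 Col4a1 and Col4a2 were higher in the mutant, where both marker sums were lower. In litter 1 both chains and both sums were lower in the mutant. In litter 3 both sums were lower and the chains nearly level, with differences of 0.013 and 0.0032. In bulk samples, fewer cells of a type and less RNA per cell cannot be told apart, and the part of these cells in the type IV levels was not tested.

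Of the 16 other tested chains, Col13a1 and Col6a5 had the smallest p, both with lower values in the mutants. Col13a1, a transmembrane collagen of cell junctions, was at 2.33, 2.69 and 2.26 FPKM in the controls and 0.979, 1.45 and 1.37 FPKM in the mutants. All mutants were below all controls, and the difference was -0.60 (SE 0.16), with an adjusted p of 0.884 in limma, or 0.230 with the block. Col6a5, a type VI chain, was at 3.07, 2.15 and 2.84 FPKM and at 1.86, 1.80 and 1.53 FPKM, again without overlap, and its difference was -0.43 (SE 0.16), with a limma adjusted p of 1.00. With a pseudocount of 0.1 in place of 1, these low-level differences were -0.90 and -0.60.

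Col25a1 and Col15a1 were the other tested chains with higher values in every litter. Col25a1, a transmembrane collagen, was at 29.9, 16.2 and 28.8 FPKM in the controls and 30.3, 33.6 and 33.6 FPKM in the mutants. Its groups did not overlap, but in litter 1 the genotypes were nearly level, and the difference was 0.42 (SE 0.24). Col15a1, a proteoglycan collagen near basement membranes, was at 6.40, 11.1 and 10.8 FPKM and at 6.97, 19.8 and 13.9 FPKM. Each mutant was above its own control and litter 1 was low in both genotypes, with a difference of 0.41 (SE 0.38) and an unadjusted limma p of 0.323, or 0.0305 with litter as a block.

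The main type VI chains form beaded filaments around cells. Col6a1, Col6a2 and Col6a3 averaged 88.0 ± 9.88, 89.6 ± 20.1 and 59.3 ± 5.75 FPKM in the controls and 78.6 ± 16.9, 79.0 ± 30.8 and 61.8 ± 10.4 FPKM in the mutants (SD, n = 3). Their differences were -0.18 (SE 0.20), -0.24 (SE 0.35) and 0.051 (SE 0.17). With litter as a block the SEs were 0.12, 0.14 and 0.15, and the unadjusted limma p were 0.173, 0.133 and 0.751. Col6a6, at 4.25 ± 1.40 and 4.47 ± 1.34 FPKM, was far less abundant. Col8a1 and Col8a2, chains of a short network collagen, differed by -0.24 (SE 0.18) and -0.0030 (SE 0.18). The minor fibril chains Col24a1 and Col27a1 differed by 0.049 (SE 0.15) and 0.059 (SE 0.17). Col16a1, a fibril-associated chain, and Col18a1, the source of endostatin, differed by -0.18 (SE 0.28) and -0.17 (SE 0.21). Col23a1, a transmembrane chain, was at 55.3, 37.9 and 55.9 FPKM in the controls and 32.2, 45.2 and 42.7 FPKM in the mutants, lower in litters 1 and 3 and higher in litter 2. Col26a1, at 125 ± 11.8 and 121 ± 29.9 FPKM, was the most abundant of the other chains.

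The remaining 11 chains were below the filter, with values up to 1.76 FPKM. That value belonged to Col17a1, a hemidesmosome collagen of epithelia, in the litter 2 control, the column with the highest surface ectoderm sum. Col10a1, the marker of hypertrophic chondrocytes, reached at most 0.157 FPKM and was listed at 0 in the litter 2 control. Col19a1, a fibril-associated chain, was at 0.210, 0.162 and 0.148 FPKM in the controls and 0.812, 0.472 and 0.280 FPKM in the mutants. All 3 of its mutants were higher without overlap, at levels where the number of reads is unknown. Col5a3, Col6a4, Col20a1, Col22a1 and Col28a1 stayed under 1 FPKM in every column. Col7a1 shares a row with a microRNA gene and is no member by the rule.

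The authors' deposited list of genes named as directly repressed by Shox2 held 12 of the 43 collagen rows (27.9%), which make up 0.888% of the symbols in the list. Among tested rows it held 28.1% of the collagens and 7.71% of all rows. The 12 were Col1a2, Col3a1, Col5a2, Col6a5, Col6a6, Col10a1, Col12a1, Col17a1, Col24a1, Col25a1, Col26a1 and Col28a1. How far it was drawn from these very samples is not given, so it is no independent evidence of direction. Of the 12, 2 were higher in the mutants in 3 of 3 litters, Col12a1 and Col25a1, and 5 were lower, Col1a2, Col3a1, Col6a5, Col17a1 and Col28a1, the last pair below the filter. Over all tested rows 15.7% were higher and 22.3% lower in 3 of 3 litters.

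Among enzymes that fold and modify collagen, the 4 genes of smallest p were P4ha1, Plod2, P4ha2 and Plod1, each with higher values in the mutant of every litter. Of 27 symbols, 6 of them older names, 20 had a row and all of these were tested. In limma 0 passed, 3 were higher and 0 lower by unadjusted p under 0.05 (against 2.21% and 1.36% of all rows), and with litter as a block 4 and 1 (against 5.34% and 6.29%). These shares of all rows hold for the lists that follow too. The median difference was -0.038. In 3 of 3 litters 5 were higher and 4 lower, against 15.7% and 22.3% of all tested rows. The lower ones were Creb3l1, Fkbp10, Mia3 and P3h1. Creb3l1 was the 1 lower with the block. Its litter differences were -0.59, -0.83 and -0.24, with overlapping groups. P4ha1, a catalytic subunit of prolyl 4-hydroxylase, which stabilises the helix, was at 46.3, 46.0 and 41.0 FPKM in the controls and 75.3, 90.0 and 67.6 FPKM in the mutants. The genotypes did not overlap, and the difference was 0.78 (SE 0.15), with an adjusted p of 0.626 in limma, or 0.0784 with litter as a block. P4ha2, the alternative subunit, was at 20.8, 23.9 and 24.2 FPKM and at 27.2, 47.5 and 34.8 FPKM, a difference of 0.61 (SE 0.22). Plod2, the lysyl hydroxylase of the chain ends that become crosslinked, was at 44.0, 39.2 and 44.8 FPKM and at 61.7, 74.2 and 68.2 FPKM. Its genotypes did not overlap either, and the difference was 0.66 (SE 0.14), with an adjusted p of 0.725 in limma, or 0.121 with the block. Plod1, the lysyl hydroxylase of the helix, was at 36.8, 46.1 and 42.8 FPKM and at 43.6, 72.2 and 59.3 FPKM. The prolyl 3-hydroxylases P3h1, P3h2 and P3h3 and the related P3h4 differed by -0.16 (SE 0.22), -0.023 (SE 0.25), -0.14 (SE 0.20) and -0.063 (SE 0.27). Not all hydroxylases thus had higher values. P4ha3, a further prolyl 4-hydroxylase subunit, was higher in 3 of 3 litters, by 0.084, 0.37 and 0.21. Its groups overlapped, and its difference was 0.22 (SE 0.41). P4ha1, P4ha2, Plod1 and Plod2 were higher in the litter 1 mutant as well, where 29 of 32 collagen chains were lower.

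Enzymes that trim and crosslink collagen outside the cell had a median difference of -0.17 over 11 tested of 14 symbols. By unadjusted limma p 0 were higher and 0 lower, or 0 and 3 with the block, and 6 were lower in 3 of 3 litters, against 5.34% and 6.29% of all rows with the block and 22.3% lower in 3 of 3 litters. Tgm2, a crosslinking transglutaminase, was at 1.95, 2.82 and 2.54 FPKM in the controls and 1.21, 1.72 and 1.78 FPKM in the mutants, and Bmp1, which removes C-terminal propeptides, at 87.3, 122 and 112 FPKM and at 69.0, 111 and 81.2 FPKM. Adamts14, which removes N-terminal propeptides, and Loxl1, a lysyl oxidase, differed by -0.37 (SE 0.23) and -0.24 (SE 0.18). Collagen receptors had a median of 0.0092 over 7 tested of 10 symbols, with 0 by unadjusted limma p, or 0 higher and 1 lower with the block, the latter Itga10. Itga10, an integrin chain of chondrocytes, was at 1.41, 1.92 and 2.45 FPKM and at 0.857, 1.51 and 1.37 FPKM. The integrin chains Itga1 and Itgb1 and the receptor kinase Ddr2 differed by 0.20 (SE 0.17), 0.10 (SE 0.13) and 0.18 (SE 0.24).

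Proteins that bind fibrils had a median of -0.17 over 20 tested of 21 symbols, with 2 higher and 3 lower by unadjusted limma p and 0 past the adjusted threshold. With litter as a block 3 were higher and 6 lower by unadjusted p, and 10 were lower in 3 of 3 litters, against 22.3% of all rows. Kera, a small proteoglycan that spaces fibrils, was at 43.1, 41.9 and 51.1 FPKM in the controls and 92.6, 82.9 and 113 FPKM in the mutants. Thbs1, an adhesive glycoprotein, was at 99.4, 63.5 and 89.9 FPKM and at 139, 143 and 140.4 FPKM. Tnc, a matrix protein of tendon and condensations, was at 85.4, 60.1 and 70.8 FPKM and at 46.2, 51.4 and 45.4 FPKM, and Postn, a partner of type I collagen, differed by -0.52 (SE 0.16). None of these 4, named for their small p, overlapped between genotypes. In the whole list 2 were higher and 3 lower without overlap, Thbs2 among the latter, against 4.22% and 5.03% of all tested rows. Partners of type IV collagen, such as laminins, had a median of 0.075 over 15 tested of 19 symbols, with 0 by unadjusted limma p, or 1 higher and 0 lower with the block. Their litter medians were -0.14, 0.36 and 0.018, next to -0.34, 0.55 and 0.013 for the type IV chains. The laminin chains Lama2 and Lama1, Fras1 of the skin basement membrane, and Nid2, which links laminin to type IV collagen, differed by 0.50 (SE 0.27), 0.28 (SE 0.21), 0.33 (SE 0.22) and -0.20 (SE 0.19).

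Of 15 symbols for transcription factors that act on collagen genes, 14 were tested, with 3 higher and 2 lower by unadjusted limma p (against 2.21% and 1.36% of all rows) and a median of -0.011. With the block 3 were higher and 4 lower (against 5.34% and 6.29%). Sox5, which works with Sox9 on cartilage collagen genes, was at 5.19, 6.33 and 6.86 FPKM in the controls and 10.1, 12.7 and 10.2 FPKM in the mutants. Sox6, its close relative, was at 8.10, 6.98 and 8.09 FPKM and at 11.3, 9.60 and 9.73 FPKM. Both were higher in the litter 1 mutant as well, where the cartilage chains were lower. Sox9 itself was at 32.2, 112 and 59.8 FPKM and at 35.3, 95.8 and 75.2 FPKM. Its groups overlapped, and its difference was 0.079 (SE 0.53). Mkx, a homeobox factor of tendon, was at 7.92, 11.7 and 8.09 FPKM and at 15.6, 19.5 and 14.6 FPKM. Scx, the tendon factor that acts on Col1a1, was at 84.5, 79.3 and 77.2 FPKM and at 45.8, 64.4 and 62.4 FPKM. The tendon factors thus differed in opposite directions. The bone factor Sp7 was at 3.22, 5.78 and 5.34 FPKM and at 0.921, 1.54 and 2.15 FPKM, and Runx2, which acts before it, at 9.10, 20.0 and 19.3 FPKM and at 3.62, 10.4 and 11.1 FPKM. In limma the lowest adjusted p was 0.732, for Sox5, and with litter as a block it was 0.0643, for Sp7.

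**Figure D4:**
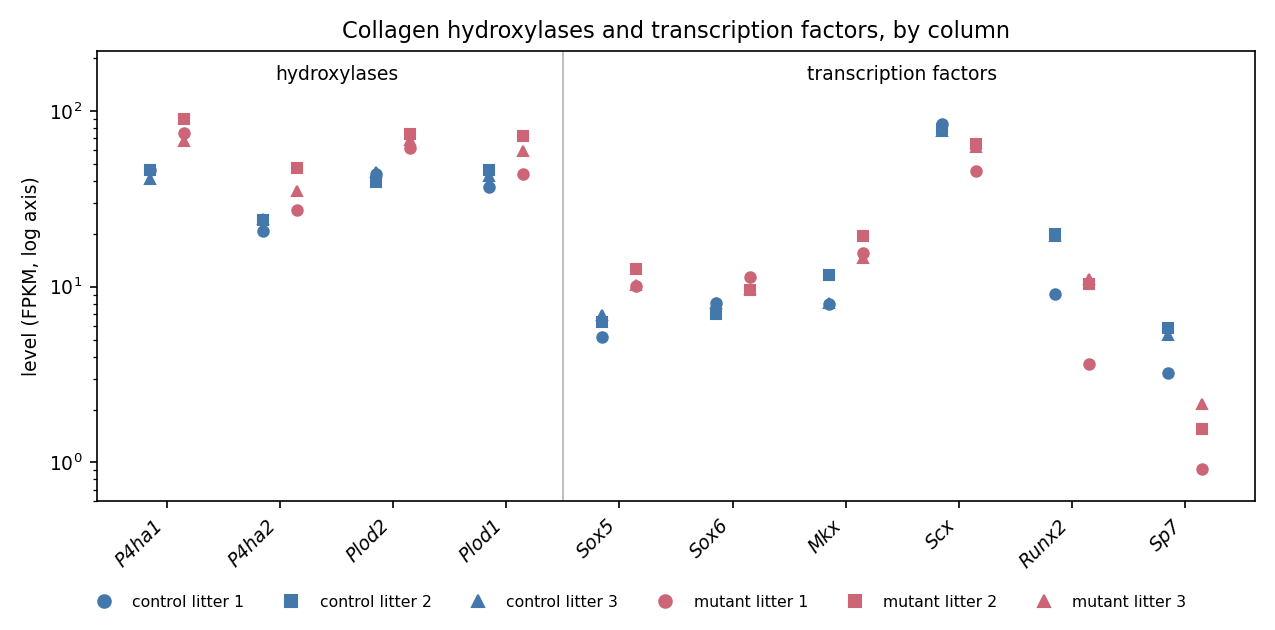
Level in FPKM (vertical log axis) of 4 collagen hydroxylases and 6 transcription factors, with 1 point per column, blue for controls and red for mutants, and 1 marker shape per litter. P4ha1, P4ha2, Plod2, Sox5, Sox6 and Mkx have all mutant points above all control points, and Scx and Sp7 have all of them below.

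Marker sums describe the matrix-making cells in the columns. The 9 osteoblast and hypertrophic chondrocyte markers summed to 21.0 to 42.0 FPKM in the controls and 7.58 to 18.6 FPKM in the mutants, without overlap. Of these markers Bglap, Ibsp and Mmp13 were below the filter. Col1a1, the main bone chain, was lower in each litter, as were Col1a2, Col3a1, Col6a1, Col6a5 and Col13a1. The 9 chondrocyte markers with a row summed to 165 to 259.8 and 156 to 271 FPKM and were lowest in litter 1 in both genotypes, and the 6 tendon markers to 152 to 181 and 165 to 217 FPKM. Single tendon markers went both ways, with Kera and Mkx higher in 3 of 3 litters, Scx, Fmod and Thbs4 lower in 3 of 3, and a median difference of -0.46 with the sign opposite to the sum. Single chondrocyte markers went both ways too, with Sox5, Sox6 and Matn3 higher in 3 of 3 litters and Comp and Matn1 lower in 3 of 3. Their median difference was 0.083. Over all tested rows 15.7% were higher and 22.3% lower in 3 of 3 litters. Muscle markers summed to 29.6 to 80.3 and 50.4 to 72.3 FPKM, nerve and glia markers to 21.7 to 63.1 and 31.0 to 80.9 FPKM, leukocyte markers to 11.9 to 15.3 and 9.95 to 17.9 FPKM and red cell markers to 327 to 591 and 229 to 712 FPKM. No list had a marker at 0 in all columns, and the part of these cells in the collagen levels was not tested.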

How the data were processed

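The submitters' processing notes name TopHat, Cuffdiff and mm9, and give no version here. The deposited values were taken as FPKM with Cuffdiff's geometric normalisation, which the header rows state above each litter per the file headers, and the unit is the one Cuffdiff reports, since no header names it. If litters were scaled one by one, levels compared between litters would depend on that. The source of the single litter 1 mutant column, from 2 labelled samples, is not given, and whole limbs were not analysed here.

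Rows with 1 FPKM or more in at least 3 of 6 columns (12314 of 24102) were fitted on log2(FPKM + 1) with limma 3.58.1 (R 4.3.3), using an intensity trend and no litter term, a scale that understates differences of low genes. Benjamini-Hochberg adjustment ran over all rows (threshold 0.05). The code was tested on simulated data. A second fit had litter as a replicate block. The labels give the litter of each sorted sample, so columns were paired by litter. Deviations from group means correlated within litters at 0.873, 0.568 and 0.770 over all tested rows. Over the 32 tested collagen rows they correlated at 0.862, 0.652 and 0.419. There the litter 3 mutant correlated nearly as well, at 0.414, with the control of another litter. The members and lists were chosen with earlier results of these data known. Named were all chains of the 3 groups, the other chains that passed the filter, and up to 4 genes of smallest p in each further list. Sox6, Sox9, Runx2, Thbs2, Creb3l1, Fkbp10, Mia3, further hydroxylases and markers of cell types were named as context. The chains below the filter were named after their values were seen. Other scalings, filters, pseudocounts and weights, and fits without a column or a litter, were tried.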

Additional observations from a re-analysis of the deposited data

How the results depend on the processing

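Depth is unknown, and 3 columns per genotype limit what a difference can show. The replicate block moved the collagen chains with an unadjusted limma p under 0.05 from 1 to 2 higher and from 2 to 3 lower and gave no adjusted call. The count higher was 2 with no filter (all rows 2.5%) and 3 with column weights (5.1%). The count lower was 0 with a mean of 5 FPKM or more (1.07%), a filter that left Col6a5 and Col13a1 untested. Leaving out single columns gave 0 to 1 higher and 1 to 3 lower, and over all rows 0 to 1 called higher and 0 to 1 lower. Column weights called 12 rows higher and 3 lower, 0 of them collagens. The block without the litter 1 pair gave 4 chains higher and 0 lower by unadjusted p, against 3.57% and 2.39% of all rows. The block without the litter 2 pair, with 4 columns and 1 residual degree of freedom, called 315 rows higher and 219 lower. It had 7 chains lower by unadjusted p, against 8.06% of all rows, and 5 past the adjusted threshold in limma, Col12a1 at 0.45 (adjusted p = 0.0490), Col6a5 at -0.56, Col8a1 at -0.43, Col13a1 at -0.61 and Col23a1 at -0.57. The block without the litter 3 pair called 31 rows higher and 5 lower, 0 of them collagens. Over the alternatives the medians ran from -0.059 to 0.42 for cartilage, -0.29 to 0.089 for bone and tendon, and -0.17 to 0.28 for basement membrane chains.

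Some uncalled differences took the other sign, and the cause was not tested. Quantile normalisation put Col5a1 at 0.052, Col5a2 at 0.014, Col8a2 at 0.040 and Col26a1 at 0.00099. Column weights put Col5a1 at 0.038, Col6a6 at -0.049, Col8a2 at 0.20, Col11a2 at 0.033, Col18a1 at 0.14 and Col26a1 at 0.0083. The block without the litter 1 pair put Col5a1 at 0.18, Col5a2 at 0.11, Col8a2 at 0.20, Col11a2 at 0.080 and Col26a1 at 0.16. Without the litter 2 pair it put Col4a1 at -0.19, Col4a2 at -0.17, Col6a3 at -0.15, Col6a6 at -0.26, Col9a1 at -0.016, Col9a2 at -0.10, Col9a3 at -0.11, Col14a1 at -0.078, Col24a1 at -0.064, Col27a1 at -0.13 and Ddr2 at -0.054. Without the litter 3 pair it put Col5a2 at 0.011, Col9a3 at -0.028 and Col11a2 at 0.00049. With single columns left out, the ranges were Col4a1 from -0.12 to 0.21, Col4a2 from -0.14 to 0.26, Col5a1 from -0.16 to 0.13, Col5a2 from -0.22 to 0.096, Col6a2 from -0.47 to 0.13, Col6a3 from -0.066 to 0.18, Col6a6 from -0.14 to 0.28 and Col8a2 from -0.10 to 0.17. For the others they were Col9a2 from -0.041 to 0.38, Col9a3 from -0.16 to 0.23, Col11a2 from -0.30 to 0.13, Col14a1 from -0.14 to 0.17, Col16a1 from -0.41 to 0.067, Col24a1 from -0.026 to 0.13, Col26a1 from -0.22 to 0.14, Col27a1 from -0.095 to 0.18 and Ddr2 from -0.092 to 0.34. The log2 ratio of Col1a1 to Col1a2 ran from -0.58 to 0.10, Col4a1 to Col4a2 from -0.13 to 0.22, Col9a1 to Col9a2 from -0.041 to 0.16 and Col5a1 to Col5a2 from -0.087 to 0.18.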
